A study of Ovis aries with 3 samples.

Results

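The miR-193 and miR-365 miRNAs of the sheep left ventricle were described from small RNA sequencing counts. They comprise every entry of the merged count tables named miR-193a, miR-193b, miR-365, miR-365a or miR-365b, of any copy or arm, and 8 of the 636 entries (621 distinct) carry such a name. The group was selected on its counts in these same libraries, since miR-365a-3p was noticed for its high level in the recovery library. Its levels are therefore given as a description, with no test. All 8 entries were named from human (hsa), mouse (mmu) or rat (rno) miRNAs, and none from a known sheep miRNA.

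Left ventricular RNA of Coopworth ewes was pooled by group, and 1 small RNA library was sequenced per group. HF-R is a pool of 4 sheep that were paced and then allowed to recover, for 26 days by the treatment label or for a further 14 days by the sample description. HF is a pool of 6 sheep whose left ventricle was paced rapidly until the heart failed, for 13 days near 220 bpm by the treatment label or for 14 days at 225 bpm by the description. For both groups the paper gives the values of the treatment labels. Cont is a pool of 4 sheep that were not paced. The paper states that the sheep were instrumented through a left thoracotomy under general anesthesia, with a pacing electrode implanted for HF and HF-R. Apart from anesthesia and euthanasia, no genetic alteration or drug treatment is given for any of the groups. With 1 pooled library per group the spread between sheep is unknown, so intervals below are 95% intervals that cover counting error only, and PCR copies are not independent molecules. The tissue is bulk muscle, in which fewer cells of a type and less RNA per cell cannot be told apart.

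In mammals miR-193b and miR-365 are made from neighbouring hairpins that can be processed from 1 shared transcript, and a second locus makes another miR-365 copy. Each hairpin yields a 5p and a 3p arm, and the bases near the 5′ end of the loaded arm, the seed, select the mRNAs that the miRNA represses. In mouse the miR-193b and miR-365 cluster is known from brown fat cell differentiation, and in human cells both miRNAs can repress cyclin D1, a driver of cell division.

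The mature sequences are shown because the seeds and the differences between loci decide which reads can be assigned to which hairpin. They are the deposited sequences at their sheep loci, printed 5′ to 3′ with the seed (bases 2 to 8) in capitals.
hsa-/mmu-/rno-miR-365a-3p: tAATGCCCctaaaaatccttat
mmu-miR-193b-3p: aACTGGCCcacaaagtcccgct
rno-miR-193b-3p: aACTGGCCcacaaagtccc
hsa-/mmu-miR-193b-5p: cGGGGTTTtgagggcgagatga
rno-miR-193b-5p: gGGGTTTTgagggcgaga
hsa-/mmu-miR-365a-5p: aGGGACTTttgggggcagatgtg
hsa-/mmu-miR-365b-5p: aGGGACTTtcaggggcagctgt
rno-miR-365-5p: gAGGGACTttcaggggc
The mouse and rat forms of miR-193b-3p share a seed, as do the 5p arms of miR-365a and miR-365b. Rno-miR-193b-5p starts 1 base later than hsa-/mmu-miR-193b-5p, and rno-miR-365-5p starts 1 base earlier than hsa-/mmu-miR-365b-5p, so their bases 2 to 8 differ from those of their partners.

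On the Oar v4.0 genome the entries lie at 2 loci. MiR-193b-5p is at NC_019481.2:13212576-13212597 on the plus strand and mmu-miR-193b-3p at NC_019481.2:13212613-13212634. The 5p arm of the first miR-365 hairpin (miR-365-1, deposited as miR-365a-5p) begins 4619 nt beyond miR-193b-3p, at NC_019481.2:13217254-13217276. The 5p arm of the other hairpin (miR-365-2, deposited as miR-365b-5p) is at NC_019468.2:18054875-18054896 on the minus strand. MiR-365a-3p is listed at NC_019468.2:18054836-18054857 and, in the tables of each library, also at NC_019481.2:13217294-13217315, 17 nt from the 5p arm at either locus. The 3p sequence is identical at both, so its reads cannot be divided between them. The 5p arms differ at 3 bases (T10C, G11A and A19C, counted from the 5′ end, with the miR-365a-5p base first), so the 5p reads separate the loci. No genome or gene annotation of this build was used, so exon or intron positions are not given.

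Counts were scaled to CPM, the count divided by the library's total over the distinct entries and multiplied by 1000000. The totals were 5990078 in HF-R, 6154795 in HF and 4711131 in Cont. An entry was called higher or lower where its CPM ratio was at least 1.5-fold in that direction and its interval excluded 1. Of the 356 distinct entries whose deposited mean reached 10 counts, 81 were higher and 28 lower in HF than in Cont, 17 higher and 40 lower in HF-R than in Cont, and 18 higher and 83 lower in HF-R than in HF. With TMM scaling the split turned to 42 higher and 74 lower for HF/Cont and to 58 higher and 33 lower for HF-R/HF. With DESeq2 size factors it was 52 and 53 for HF/Cont and 44 and 41 for HF-R/HF, and without miR-1 it was 28 and 24 for HF-R/Cont. The median CPM ratio of all 356 entries was 1.12 in the HF/Cont comparison, 0.98 in HF-R/Cont and 0.817 in HF-R/HF. A ratio is therefore also given relative to that median, a value that no scaling changes. TMM moved the median HF/Cont ratio to 0.878 and the median HF-R/HF ratio to 1.04. The cardiomyocyte miRNAs miR-1, miR-133, miR-208 and miR-499 together took 39.7% of counts in HF-R, 33.3% in HF and 33.0% in Cont. Skeletal muscle miR-206 had 7.18 CPM in HF-R, 6.82 in HF and 5.09 in Cont. The fibroblast miRNAs miR-199 and miR-214 together had 1768 CPM in HF-R, 1616 in HF and 1267 in Cont. Of these, miR-214-5p was called higher than Cont in HF-R (ratio 1.85) and in HF (1.55). MiR-214-3p was called higher than Cont in HF-R (2.10) but not in HF (1.18), and miR-199a-5p and miR-199b-5p were not called. The smooth muscle miRNAs miR-143 and miR-145 took 8.36 to 10.2% of counts and the leukocyte miRNAs miR-142 and miR-223 142.7 to 187.2 CPM. No entry of endothelial miR-126 was found, so the endothelium had no marker here. Liver miR-122 had 3 counts in HF-R, 36 in HF and 3 in Cont, and was called higher in HF than in Cont (ratio 9.19) and lower in HF-R than in HF. The neuronal miRNAs miR-124 and miR-9 had 44.1 CPM in HF-R, 93.7 in HF and 87.7 in Cont, and the red cell miRNAs miR-451 and miR-486 3172 to 3832 CPM. The part of cell composition in the results below was not tested.

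MiR-365a-3p, the most abundant entry of the group, was higher than in Cont in both HF-R and HF, at nearly the same level. Hsa-/mmu-/rno-miR-365a-3p had 533 counts in HF-R, 539 in HF and 202 in Cont, which is 89.0, 87.6 and 42.9 CPM. The HF-R and HF levels lie within each other's counting intervals (81.6 to 96.9 CPM and 80.3 to 95.3 CPM), and both intervals lie above that of Cont (37.2 to 49.2 CPM). Its CPM was 2.08 times that of Cont in HF-R (interval 1.76 to 2.45) and 2.04 times in HF (1.73 to 2.41), and the HF-R/HF ratio was 1.02 (0.90 to 1.147). Relative to the median entry these ratios were 2.12, 1.82 and 1.24. With TMM scaling the HF/Cont ratio was 1.60 and the HF-R/HF ratio 1.30 (1.15 to 1.47), below 1.5-fold. By mean count it was number 130 of the 621 distinct entries. Of the 356 entries it was number 15 by HF-R/Cont ratio and number 43 by HF/Cont ratio, and its rank by HF-R/HF ratio was lower than both. Because the group was selected for the level of this entry in HF-R, its HF-R/Cont rank is a description only.

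MiR-193b-3p, the main arm of the neighbouring hairpin, was also higher in HF than in Cont, with an intermediate level in HF-R. Mmu-miR-193b-3p had 148 counts in HF-R, 185 in HF and 83 in Cont, or 24.7, 30.1 and 17.6 CPM. The intervals of HF-R (20.9 to 29.0 CPM) and HF (25.9 to 34.7 CPM) overlap, and that of HF-R also overlaps that of Cont (14.0 to 21.8 CPM). The HF/Cont ratio was 1.71 (1.31 to 2.24) and was called higher. The HF-R/Cont ratio of 1.40 (1.06 to 1.86) was below 1.5-fold, and the HF-R/HF ratio was 0.822 (0.658 to 1.03). The HF/Cont call was lost with TMM scaling (1.34) and with DESeq2 size factors (1.46). Relative to the median entry it was 1.52 times Cont in HF and 1.43 times Cont in HF-R, and the HF-R/HF ratio was 1.01. The only other deposited form, rno-miR-193b-3p, which lacks the last 3 bases, had 1 count in HF and no value in HF-R or Cont.

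The 5p arms, usually the strand that is degraded, were rare among perfect matches. Hsa-/mmu-miR-193b-5p had 4 counts in HF-R, 9 in HF and 2 in Cont. Hsa-/mmu-miR-365a-5p, from the miR-365-1 locus, had 8 counts in HF-R, 9 in HF and 1 in Cont. Hsa-/mmu-miR-365b-5p, from the miR-365-2 locus, had 1 count in HF and no value in HF-R or Cont, where the depth allows a level of up to 0.501 CPM and 0.637 CPM (3 counts). None of these entries reached a mean of 10 counts, and every interval of their ratios included 1.

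**Figure D1:**
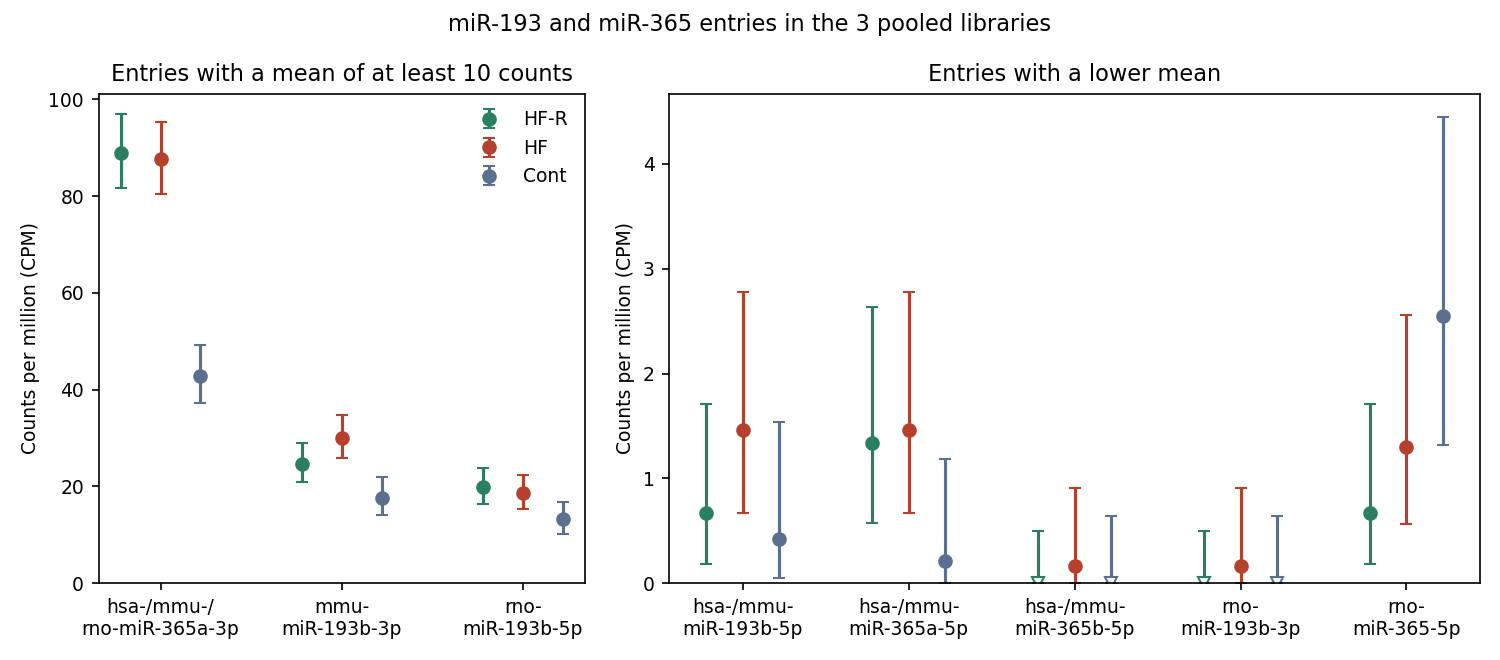
Level of each miR-193 and miR-365 entry in CPM (y axis from 0) in the HF-R, HF and Cont libraries, with exact Poisson 95% intervals as bars and open triangles for libraries without a value, with bars up to 3 counts. MiR-365a-3p was near 89 CPM in HF-R and 88 CPM in HF against 43 CPM in Cont, while the entries of the right panel stayed below 3 CPM. The deposited counts of rno-miR-193b-5p equal those of another arm.

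Both rat 5p entries were partial (70 to 99%) matches. Rno-miR-365-5p, the miR-365-2 arm, had 4 counts in HF-R, 8 in HF and 12 in Cont, so that Cont was the highest library for this entry alone, with an HF-R/Cont ratio of 0.262 (0.0616 to 0.865). Rno-miR-193b-5p had 119 counts in HF-R, 115 in HF and 62 in Cont in the merged table. Its HF-R/Cont ratio was 1.51 (1.10 to 2.09), its HF/Cont ratio 1.42 (1.03 to 1.97) and its HF-R/HF ratio 1.06 (0.816 to 1.39). These counts are those of another arm, because the tables of each library give 119, 115 and 62 partial reads to rno-miR-193b-3p and only 34 reads in HF-R, 43 in HF and 11 in Cont to rno-miR-193b-5p. Of the 227 partially matched human, mouse and rat entries of the merged table, 209 equal the tables of each library, 17 differ and 1 was not matched by locus and sequence. Of the 307 perfectly matched entries, 297 equal those tables and 10 differ. With the counts of its own arm, rno-miR-193b-5p was higher than in Cont in both HF-R (2.43-fold, 1.2 to 5.32) and HF (2.99-fold, 1.52 to 6.43). Its locus overlaps that of hsa-/mmu-miR-193b-5p, which has 36 partial reads in HF-R, 50 in HF and 14 in Cont. The ratios of miR-193b-5p given below are therefore not an independent result. The same holds for rno-miR-365-5p and the miR-365-2 5p reads below.

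Of the 8 entries, 3 reached a mean of 10 counts. Among these 3, miR-365a-3p and mmu-miR-193b-3p were higher in HF than in Cont (22.8% of all entries were) and none was lower (7.87% were). MiR-365a-3p and, with the counts of the other arm, rno-miR-193b-5p were higher in HF-R than in Cont (4.78% of all entries), and none was lower (11.2%). None of the 3 differed between HF-R and HF, where 5.06% of all entries were higher and 23.3% were lower in HF-R. The rule chose the group on counts of these libraries, so nothing follows from these shares.

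Partial matches, which are reads that differ from the mature sequence at an end or at inner bases, added to every arm. For miR-365-3p the tables of each library list 582 such reads in HF-R, 592 in HF and 272 in Cont, or 52.2, 52.3 and 57.4% of all its reads. For miR-193b-3p they list 119, 117 and 65 reads, or 44.6% in HF-R, 38.6% in HF and 43.9% in Cont. The 5p arms were read mostly as partial matches, with 36 reads in HF-R, 50 in HF and 14 in Cont for miR-193b-5p (84.7 to 90.0% of its reads).

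With perfect and partial reads added, miR-365-3p had 1115 reads in HF-R, 1131 in HF and 474 in Cont, or 1.85 times Cont in HF-R (1.66 to 2.06) and 1.83 times Cont in HF (1.64 to 2.04). MiR-193b-3p had 267 reads in HF-R, 303 in HF and 148 in Cont, or 1.42 times Cont in HF-R (1.16 to 1.75) and 1.57 times Cont in HF (1.28 to 1.92). The partial reads of miR-193b-3p alone gave 1.38 for HF/Cont, below 1.5-fold. MiR-193b-5p had 40 reads in HF-R, 59 in HF and 16 in Cont, and was 1.97-fold higher in HF-R (1.08 to 3.76) and 2.82-fold higher in HF (1.60 to 5.26) than in Cont. Of the 345 entries counted in this way, 17.1% were higher and 8.7% lower in HF than in Cont, 5.51% higher and 13.6% lower in HF-R than in Cont, and 4.06% higher and 17.1% lower in HF-R than in HF.

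The 5p reads separate the miR-365 loci. With perfect and partial reads added, their counts had a different order over the libraries. The 5p arm of miR-365-1, beside miR-193b, had 25 reads in HF-R, 50 in HF and 17 in Cont. It was higher in HF than in Cont (2.25-fold, 1.28 to 4.16) and lower in HF-R than in HF (ratio 0.514, 0.305 to 0.846), while its HF-R/Cont ratio of 1.16 (0.60 to 2.28) was not called. These calls are for CPM, since the other scalings were not run on perfect plus partial reads. TMM and DESeq2 size factors raise HF-R/HF ratios, that of miR-365a-3p from 1.02 to 1.30 and 1.23, and they lower HF/Cont ratios. The 5p arm of miR-365-2 had 5 reads in HF-R, 10 in HF and 13 in Cont, with an HF-R/Cont ratio of 0.302 (0.0844 to 0.904) and an HF/Cont ratio of 0.589 (0.231 to 1.45). Of the 5 HF-R reads, 2 aligned poorly to the arm, and without them the HF-R/Cont ratio was 0.181 (0.0332 to 0.660). The miR-365-1 locus gave 83.3% of the miR-365 5p reads in HF-R (25 of 30, interval 65.3 to 94.4%), 83.3% in HF (50 of 60, 71.5 to 91.7%) and 56.7% in Cont (17 of 30, 37.4 to 74.5%). Without the 2 poorly aligned reads the HF-R share was 89.3% (25 of 28, 71.8 to 97.7%). The odds of a miR-365-1 read were 3.74 times those of Cont in HF-R (exact interval 1.01 to 15.996, and 1.40 to 38.9 without the poorly aligned reads) and 3.76 times in HF (1.27 to 11.6). These intervals are wide, cover counting error only and are not adjusted for the 4 shares compared between the libraries. The lower level of miR-365-1-5p in HF-R than in HF came from its partial reads (17 in HF-R, 41 in HF and 16 in Cont, HF-R/HF ratio 0.426, 0.227 to 0.767). Its perfect matches alone (8 in HF-R, 9 in HF and 1 in Cont) had an HF-R/HF ratio of 0.913 (0.307 to 2.67) and an HF-R/Cont ratio of 6.29 (0.844 to 279.2).

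**Figure D2:**
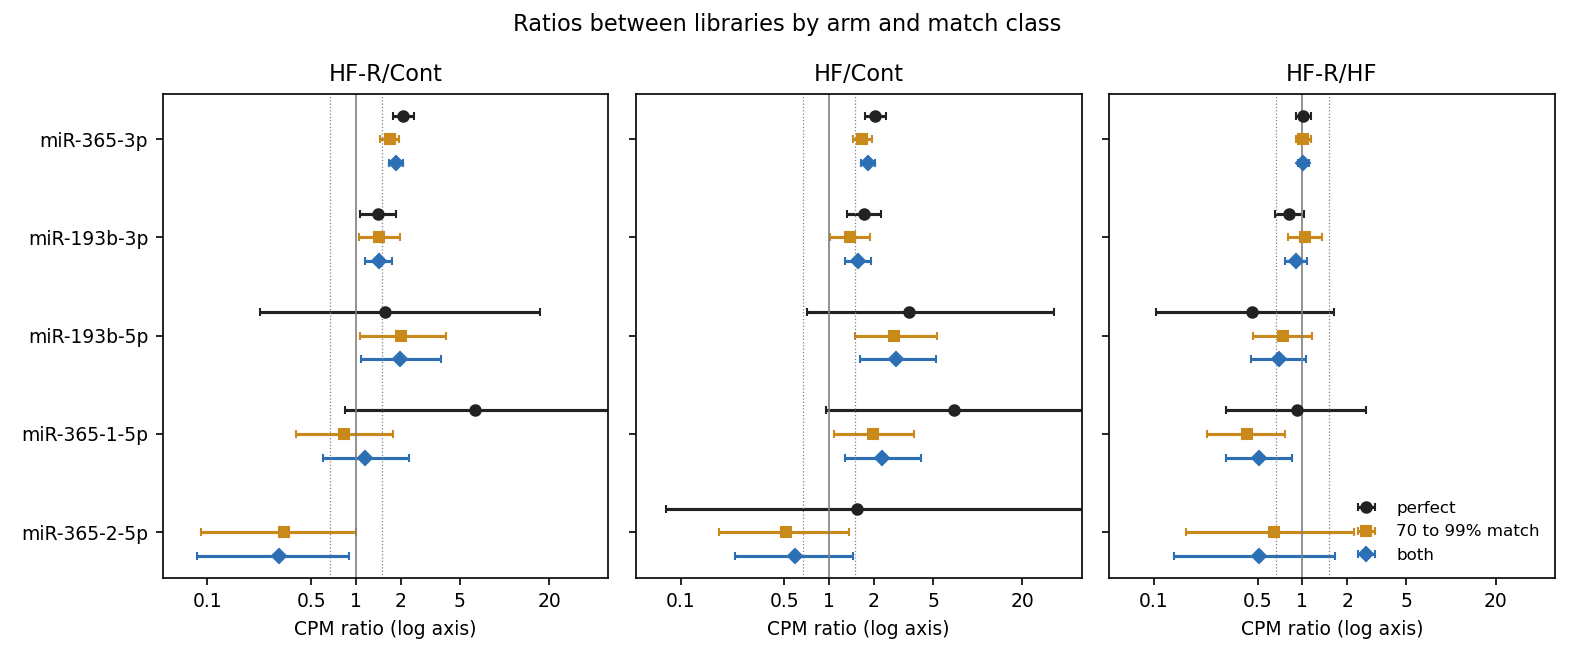
CPM ratios (log axis) of the 5 arms in the HF-R/Cont, HF/Cont and HF-R/HF comparisons, from perfect matches (circles), 70 to 99% matches (squares) and both (diamonds), with exact 95% intervals as bars (some run past the axis). Dotted lines mark 1.5-fold, and a ratio against a library with no read is not drawn. The 3p arm of miR-365 was 1.67 to 2.08 times Cont in each class, and its HF-R/HF ratio was 1.01 to 1.02.

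The 3p arm was the main product of each hairpin in every library. With all reads, the 5p arm made up 13.0% of miR-193b reads in HF-R (9.47 to 17.3%), 16.3% in HF (12.6 to 20.5%) and 9.76% in Cont (5.68 to 15.4%). For miR-365 the 5p arms made up 2.62% in HF-R (1.77 to 3.72%), 5.04% in HF (3.87 to 6.44%) and 5.95% in Cont (4.05 to 8.39%). The HF-R interval for miR-365 lies below those of HF and Cont. With perfect matches alone the 5p share of miR-193b was 2.63% in HF-R, 4.62% in HF and 2.35% in Cont. For miR-365 the share among perfect matches was 1.48% in HF-R, 2.00% in HF and 0.98% in Cont. Its odds ratio was 1.52 for HF-R/Cont (0.299 to 14.8) and 0.736 for HF-R/HF (0.255 to 2.03). MiR-365-3p outnumbered miR-193b-3p 4.18-fold in HF-R (3.65 to 4.79), 3.73-fold in HF (3.29 to 4.25) and 3.20-fold in Cont (2.66 to 3.88), and this ratio was 1.30 times that of Cont in HF-R (1.03 to 1.65) and 1.17 times in HF (0.924 to 1.47).

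**Figure D3:**
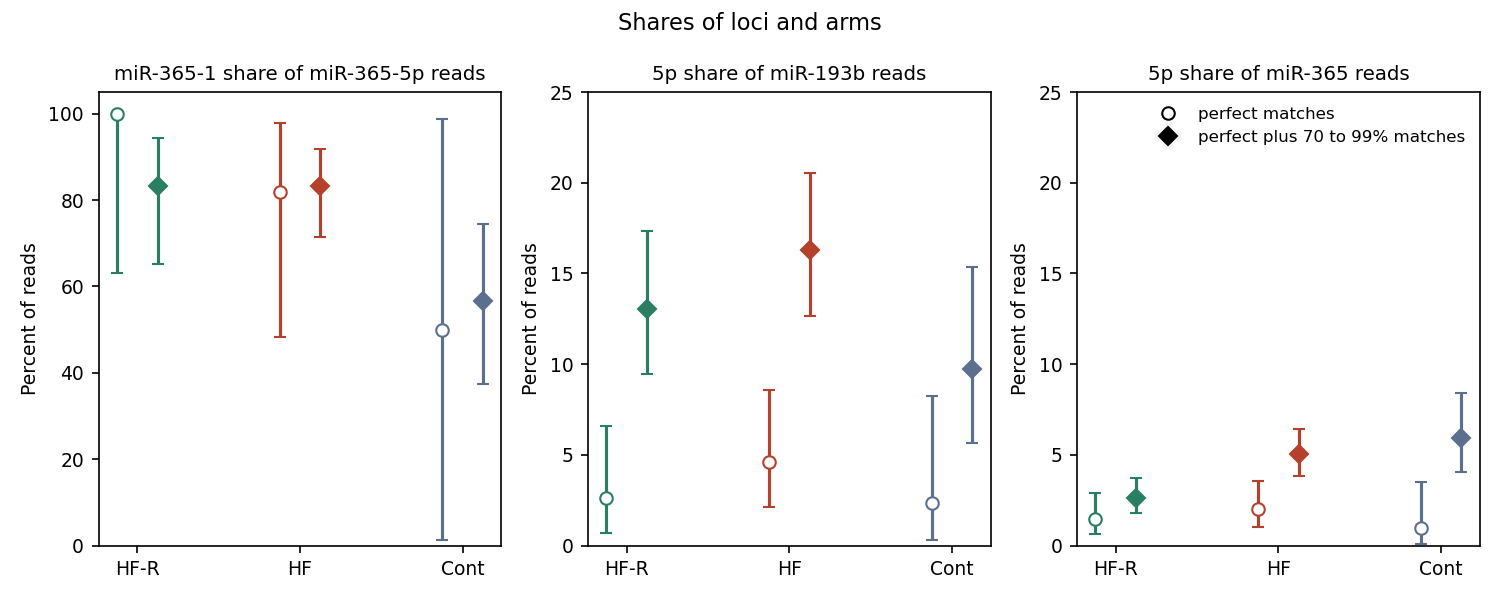
Share of miR-365 5p reads from the miR-365-1 locus, and 5p share of all miR-193b and of all miR-365 reads, in percent, for HF-R, HF and Cont, with exact 95% intervals as bars. Open circles are perfect matches and filled diamonds are perfect plus 70 to 99% matches. The miR-365-1 share was 83.3% in HF-R and in HF and 56.7% in Cont.

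The listed sequences show where the partial reads differed. The tables give each distinct sequence without its own count, so the numbers are of distinct sequences. Each sequence was placed on the mature sequence without gaps, so one that lacks an inner base can count as a later start. For miR-365-3p, 129 sequences were listed in HF-R, 111 in HF and 62 in Cont, of which 119, 107 and 59 were placed at the mature 5′ base. For miR-193b-3p, 42 of 47 sequences in HF-R, 45 of 50 in HF and 30 of 33 in Cont were so placed. The seed was intact and in place in 87 of the 129 miR-365-3p sequences in HF-R, 74 of 111 in HF and 48 of 62 in Cont. No listed sequence of the 5 arms was shared between arms or listed under a name outside the group.

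Most sequences were listed in 1 library. Of 205 miR-365-3p sequences, 29 were in all 3 libraries and 137 in 1 library, and of 92 miR-193b-3p sequences 13 were in all 3 and 67 in 1. Among the sequences that began at the mature 5′ base and had 1 mismatch, before their last 4 bases, 6 miR-365-3p changes (A3G, T4A, C7A, A11G, A15G and C18A, mature base first) and 3 miR-193b-3p changes (T4A, C18A and C19A) were seen in all 3 libraries. A3G, T4A and C7A of miR-365-3p and T4A of miR-193b-3p fall in the seed. The following forms, each found in every library, are examples of a seed change, an inner change and a changed or extended 3′ end, with bases 2 to 8 in capitals.
miR-365-3p with T4A: tAAAGCCCctaaaaatccttat
miR-365-3p with a longer 3′ end: tAATGCCCctaaaaatccttatt
miR-193b-3p with C18A: aACTGGCCcacaaagtcacgct
miR-193b-3p with a longer 3′ end: aACTGGCCcacaaagtcccgcta
The number of reads behind each form is not given.

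The 5p arms varied more often at the 5′ end. Of the miR-193b-5p sequences, 6 of 19 in HF-R, 4 of 18 in HF and 5 of 11 in Cont began 1 base upstream, each with an additional t, while 12, 12 and 4 began at the mature base in HF-R, HF and Cont. Of the miR-365-2-5p sequences, 2 of 5 in HF-R, 5 of 7 in HF and 6 of 11 in Cont began upstream, most with an additional g, which is the start of rno-miR-365-5p. The miR-365-1-5p sequences mostly began at the mature base (4 of 6 in HF-R, 17 of 23 in HF and 5 of 8 in Cont), and 1, 2 and 2 of them began upstream. An upstream start shifts the seed by the same number of bases. The miR-193b-5p forms with each start, both listed in all 3 libraries, were as follows.
miR-193b-5p, mature start: cGGGGTTTtgagggcgagatg
miR-193b-5p, 1 base upstream: tCGGGGTTttgagggcgagatg

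**Figure D4:**
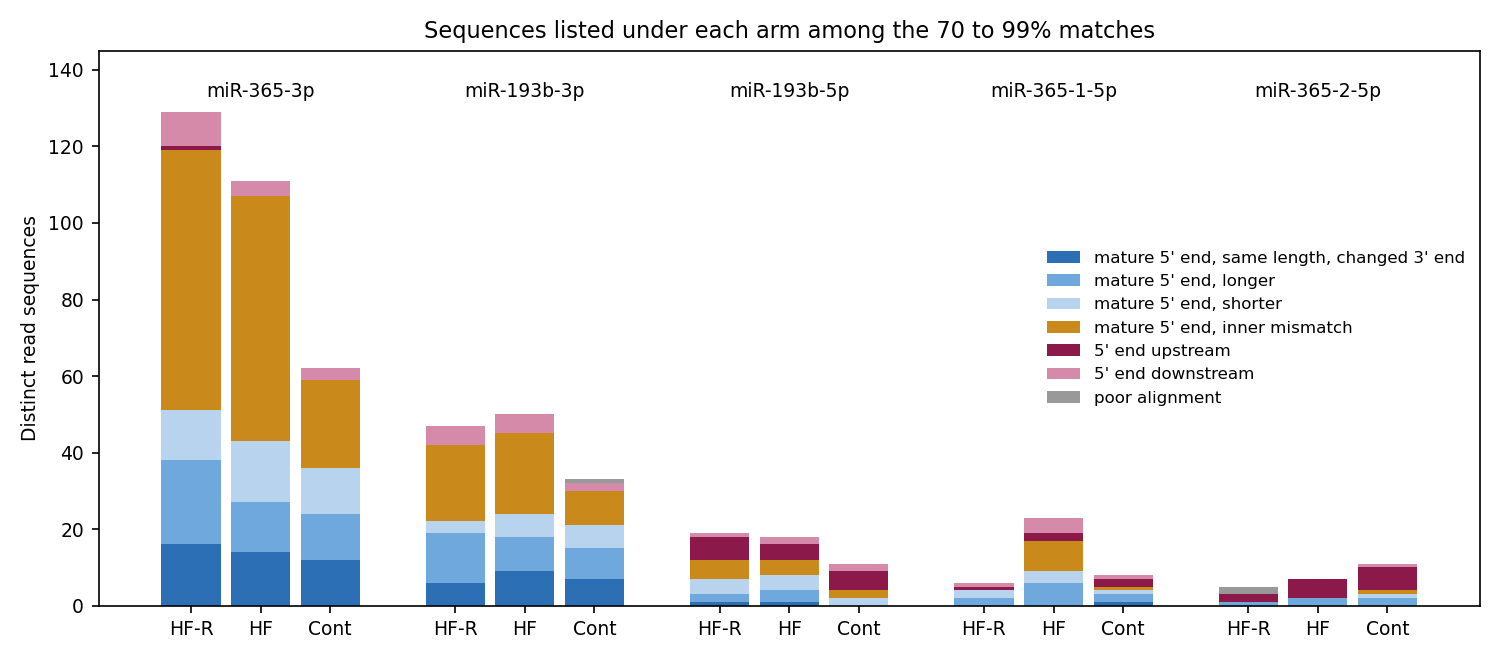
Number of distinct read sequences listed among the 70 to 99% matches of each arm in HF-R, HF and Cont, divided by where they begin and how they differ from the mature sequence (a mismatch in the last 4 bases counts as a changed 3′ end). Sequences were placed without gaps. Those of both 3p arms mostly began at the mature 5′ base, such as 119 of 129 for miR-365-3p in HF-R, while upstream starts were seen mainly for miR-193b-5p and miR-365-2-5p.

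No entry is named miR-193a, the relative of miR-193b that lies beside the second miR-365 gene in human. Human miR-193a-3p and miR-193b-3p have the same seed, and the human sequences below are those printed in the study's array probe list.
hsa-miR-193a-3p: aACTGGCCtacaaagtcccagt
hsa-miR-193b-3p: aACTGGCCctcaaagtcccgct
hsa-miR-193a-5p: tGGGTCTTtgcgggcgagatga
The sheep miR-193b-3p differs from the human miR-193b-3p by T10A, with the human base first. It differs from human miR-193a-3p by T9C, A20G and G21C. Bases 3 to 20 of human miR-193a-3p were in 0 listed reads in each library, but 1 listed read in HF differed from human miR-193a-3p by T9C alone and from the sheep miR-193b-3p at 2 bases. Bases 3 to 20 of human miR-193a-5p were in 1 distinct read in each library, listed under miR-193b-5p, and that read had T1A against the human sequence. A further read under miR-193b-5p in HF-R and in HF differed from human miR-193a-5p by C11A alone and from miR-193b-5p at 3 bases. C11A was also seen together with A22T in another HF read and with G21A in a Cont read.
miR-193a-3p with T9C, in HF: aACTGGCCcacaaagtcccagt
miR-193a-5p with T1A, in HF and Cont: aGGGTCTTtgcgggcgagatga
miR-193a-5p with C11A, in HF-R and HF: tGGGTCTTtgagggcgagatga
The number of reads behind each of these sequences is not given, and they are counted with the same arm of miR-193b above. Their labels name only the human sequence that they were compared with, since no sheep miR-193a sequence was available. The HF read labelled miR-193a-3p differs from sheep miR-193b-3p only within the bases where a mismatch counts above as a changed 3′ end. Whether any of these reads come from a sheep miR-193a gene was not tested.

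The entries whose pattern was most like that of miR-365a-3p were found by the Euclidean distance between the pairs of log2 CPM ratios (HF/Cont and HF-R/Cont), among 191 other distinct entries whose mean reached 100 counts. All of these ratios share the Cont library. The nearest was oar-miR-23b, at a distance of 0.30, with 2586 counts in HF-R, 3283 in HF and 1206 in Cont. Oar-miR-23a, a member of the same family, was at 0.38, with 33747 counts in HF-R, 43794 in HF and 16634 in Cont. Hsa-/mmu-/rno-miR-23b-3p followed at 0.50, hsa-miR-95-3p at 0.54 and hsa-/mmu-/rno-miR-361-5p at 0.55. The log2 HF/Cont ratio of these 5 was 1.01 to 1.28, beside 1.03 for miR-365a-3p, and their log2 HF-R/Cont ratio 0.51 to 0.75, beside 1.05 for miR-365a-3p. Mmu-miR-193b-3p was number 8, at 0.62.

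**Figure D5:**
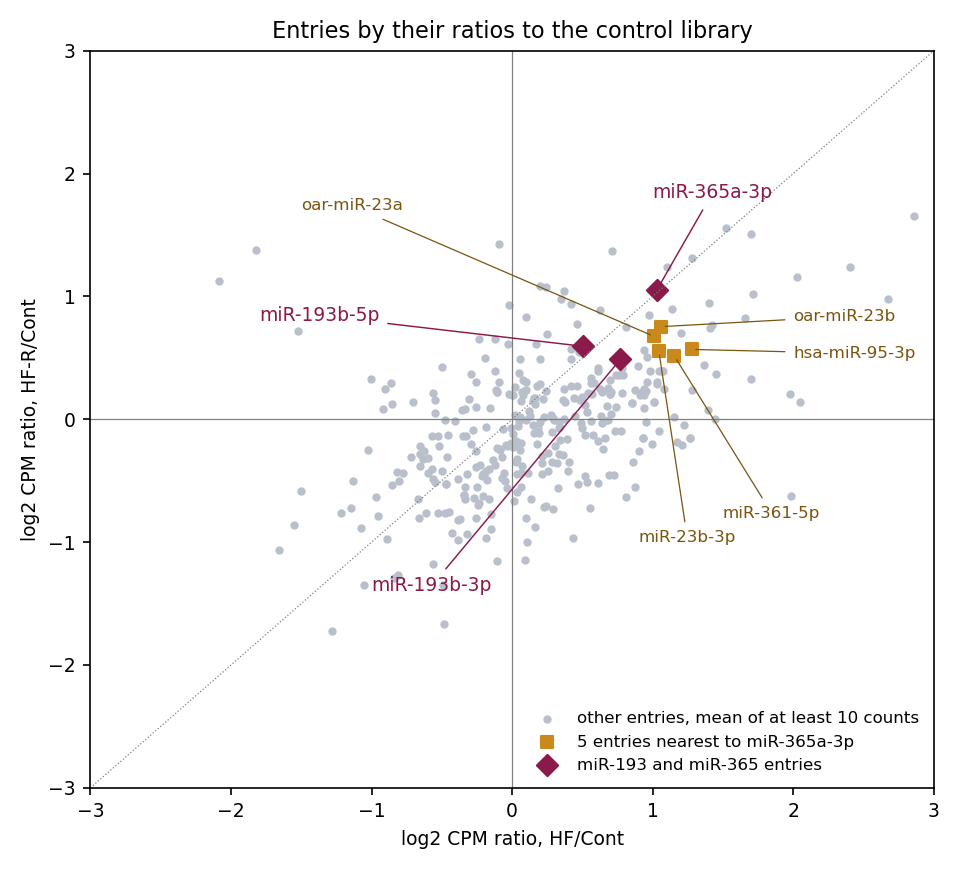
Log2 CPM ratio HF/Cont (x axis) and HF-R/Cont (y axis) of the entries whose mean reached 10 counts, with the miR-193 and miR-365 entries as diamonds and the 5 entries nearest to miR-365a-3p as squares. By CPM miR-365a-3p lies on the dotted line of equal ratios (1.03 and 1.05), and the 5 nearest entries lie below it. The place against this line depends on the scaling, and with TMM miR-365a-3p would lie above it (HF-R/HF ratio 1.30).

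Other miRNAs known from brown fat and muscle lineages were listed for comparison. Of 58 entries in that list, 47 reached a mean of 10 counts. In HF against Cont 9 of the 47 were higher and 1 lower (22.8% and 7.87% of all entries), with a median ratio of 1.21 beside 1.12 for all entries. In HF-R against Cont 0 were higher and 11 lower (4.78% and 11.2% of all entries), with a median of 0.98, the same as that of all entries. In HF-R against HF 0 were higher and 17 lower (5.06% and 23.3% of all entries), with a median of 0.706 beside 0.817. Examples by size of change were miR-32-5p (260 counts in HF-R, 440 in HF and 174 in Cont, HF/Cont ratio 1.94), miR-93-5p (1056, 1746 and 699 counts in HF-R, HF and Cont, 1.91) and miR-27b-3p (5960, 7923 and 3750 counts in HF-R, HF and Cont, 1.62). MiR-93 is made from the miR-106b cluster, and miR-27b from the same cluster as miR-23b. Mmu-miR-1b-5p (50314, 81212 and 31982 counts in HF-R, HF and Cont, 1.94) lies on the strand opposite to miR-1. None of these 4 was called in HF-R against Cont, with ratios of 1.18 to 1.25.

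The list of miRNAs linked to the cell cycle or to cardiac hypertrophy held 48 entries, 33 of them with a mean that reached 10 counts. In HF against Cont 10 of the 33 were higher and 1 lower (22.8% and 7.87% of all entries), with a median ratio of 1.40 beside 1.12. In HF-R against Cont 4 were higher and 2 lower (4.78% and 11.2% of all entries), with a median of 1.11 beside 0.98. In HF-R against HF 1 was higher and 9 lower (5.06% and 23.3% of all entries), with a median of 0.756 beside 0.817. MiR-22-5p, the minor arm of a miRNA abundant in muscle, had 167 counts in HF-R, 364 in HF and 102 in Cont (HF/Cont ratio 2.73). Oar-miR-23a had an HF/Cont ratio of 2.02 and was also higher in HF-R than in Cont (1.60). MiR-17-5p and miR-20a-5p come from the proliferation-linked miR-17-92 cluster. Hsa-/mmu-/rno-miR-17-5p and miR-20a-5p had HF/Cont ratios of 2.01 and 1.898 and HF-R/Cont ratios of 1.10 and 1.17. The counts of this miR-17-5p entry (500 in HF-R, 938 in HF and 357 in Cont) equal those of hsa-miR-106a-5p. The more abundant entry oar-miR-17-5p had an HF/Cont ratio of 1.61 and an HF-R/Cont ratio of 0.996.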

How the data were processed

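Small RNA libraries of left ventricular tissue were sequenced from 3 pools of sheep (HF-R, HF and Cont), 1 library per condition. Reads of 15 to 30 nt were matched by the authors with Blast to miRBase v21, and the miRNAs were located with Bowtie on the Oar v4.0 sheep genome, in versions not given in the sources used here. The deposited counts are unscaled numbers of reads assigned to each miRNA entry, and cells are empty where a library has none. The authors' mean, a deposited column averaged over the libraries with a value, served here as the filter on low counts and for the rank by mean count. Tables of each library hold perfect and partial (70 to 99%) matches with the listed reads.

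Members were found by name, and the members and lists were chosen with earlier results of these data known. Entries with equal counts and overlapping loci were taken once. CPM ratios have exact conditional binomial intervals, shares Clopper-Pearson intervals and levels Poisson intervals, all at 95%. Perfect plus partial reads were scaled to the same totals. Listed reads were placed on the mature sequence without gaps. The miRNAs named are all members, the 5 nearest patterns, and up to 4 called entries of each list that reach a mean of 100 counts and have the largest HF/Cont change. Alternatives were the scaling (TMM of edgeR 4.0.16, DESeq2 1.42.0 size factors, CPM that leaves out miR-1, raw counts, totals of the perfect-match tables), duplicates kept, other filters on the mean (none, or 100 counts), thresholds of 1.2-fold and 2-fold, and the counts of each library's tables. Calls on perfect plus partial reads over all entries, the removal of poorly aligned reads and the odds ratios of shares, with exact conditional intervals, were added after the data were seen. The software was R 4.3.3 and Python 3.11.15 with scipy 1.17.1, numpy 2.4.6 and matplotlib 3.10.9. Human miR-193 sequences came from the study's probe list, whose values were not used.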

Additional observations from a re-analysis of the deposited data

How the results depend on the processing

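No paired analysis was possible because each condition has 1 pooled library, and for the same reason no library could be left out. MiR-365a-3p stayed called higher than Cont in both HF-R and HF under every scaling, both match settings and all thresholds run. Its HF/Cont ratio was 1.60 with TMM and 2.67 with raw counts, its HF-R/Cont ratio 2.64 with raw counts, and its HF-R/HF ratio, never called, 1.30 with TMM and 1.23 with DESeq2 size factors. For miR-193b-3p the HF/Cont call was lost with TMM (1.34), with DESeq2 size factors (1.46) and at the 2-fold threshold (1.71). Its HF-R/Cont ratio became a call with CPM without miR-1 (1.53), with raw counts (1.78) and at 1.2-fold (1.40), and its HF-R/HF ratio was 1.05 with TMM. With partial reads added, the 5p share of miR-193b was 13.0% in HF-R, 16.3% in HF and 9.76% in Cont, and that of miR-365 5.04% in HF and 5.95% in Cont. Perfect matches alone gave 2.63% in HF-R, 4.62% in HF and 2.35% in Cont for miR-193b, and 2.00% in HF and 0.98% in Cont for miR-365. Counting depth limits the 5p arms most, and no setting reversed a called ratio.

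The numbers of entries called moved more. With TMM 42 were higher and 74 lower in HF/Cont, and 58 higher and 33 lower in HF-R/HF. With DESeq2 size factors these were 52, 53, 44 and 41. Without miR-1, 28 were higher and 24 lower in HF-R/Cont, and 53 lower in HF-R/HF. With raw counts 160 were higher and 6 lower in HF/Cont, and 71 higher and 10 lower in HF-R/Cont. Where the mean reached 100 counts, 47 were higher and 14 lower in HF/Cont, 5 and 24 in HF-R/Cont, and 9 and 48 in HF-R/HF. At 1.2-fold 53 were lower in HF/Cont, 42 higher and 73 lower in HF-R/Cont, and 37 higher and 139 lower in HF-R/HF. At 2-fold 40 were higher and 10 lower in HF/Cont, 10 and 8 in HF-R/Cont, and 7 and 34 in HF-R/HF. The cause of these shifts was not tested.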
